A study of Homo sapiens with 4 samples.

Results

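The genes described here differed at least 10-fold between the control cultures of a cadmium resistance experiment, before any comparison with cadmium was made. They were chosen on the measured control values: raw read counts were scaled to CPM (counts in each 1000000 counts of the library), and an autosomal gene was kept when a control library held at least 4 CPM and the other held at most 10% of that. Of 11470 autosomal genes with at least 4 CPM in a control, 150 met the rule, which is 1.31%. The count table listed 61541 genes, 58476 of them autosomal. Of the 150 genes, 84 were higher in the library named control 2 and 66 were higher in the library named control 3.

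RNA was measured in MDA-MB-231, a line grown from the metastatic cells of a triple-negative breast cancer, with 2 control and 2 cadmium libraries. The control cells were the parental line, passaged in normal medium. The cadmium libraries came from the same line made resistant by serial passage in cadmium sulfate, at 5 µM and then 10 µM, and were maintained at 10 µM. The number of separate selections and cultures behind the libraries is not given in the sources used here. The control columns carry the numbers 2 and 3, the alignment files behind them the letters A and B, and the sample labels the numbers 1 and 2, so control 2 and control 3 are column names only. Total counts were between 51934729 and 61916007. Each mate of a read pair was counted as a read, and counting intervals and floors below cover counting error only. Each control stands for 1 library, so no difference between the controls has a replicate check, and none was tested.

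Cells of a line passaged apart can come to differ in gene expression, through selection of subclones and through heritable changes in gene regulation. MDA-MB-231 is known for mesenchymal gene expression, for loss of the hormone receptors and for high secretion of inflammatory chemokines. Many of the latter are classical targets of NF-kB, a transcription factor family that binds DNA sites named κB. Gel-forming mucins, trefoil peptides and the factors that load them for secretion form a different program, typical of goblet cells in airway and gut.

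Markers of the labelled cell line were present in all 4 libraries. None of 9 measured autosomal markers of MDA-MB-231 and mesenchymal breast cancer met the rule, and at a background of 1.31% a list of this size would rarely hold such a gene. AXL, a receptor tyrosine kinase, was at 1543 and 1628 CPM in control 2 and control 3 and at 1620 and 1732 CPM in cadmium 1 and cadmium 2. VIM, the intermediate filament of mesenchymal cells, was at 871 and 786 CPM in the controls and 726 and 699 CPM in the cadmium libraries. The hormone receptor genes ESR1 and PGR stayed at or below 0.53 CPM in all 4 libraries. Likewise none of the few expressed epithelial junction (6), fibroblast (2), endothelial (3) and neural or melanocytic (3) markers met the rule. No leukocyte marker reached 4 CPM in a control, and CD3E, the T cell receptor component, had no count in any library.

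**Figure D1:**
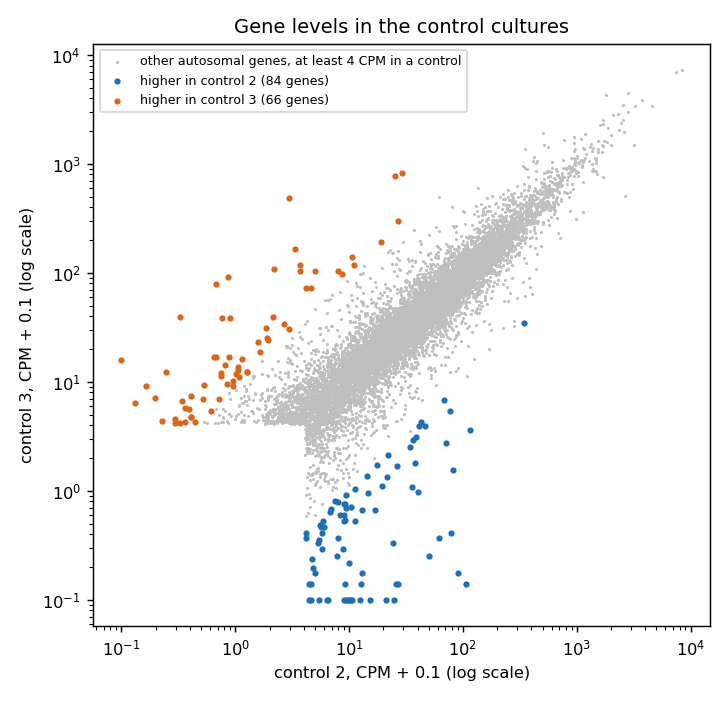
Each point is an autosomal gene with at least 4 CPM in a control; the axes give CPM plus 0.1 in control 2 (horizontal) and control 3 (vertical), both on log scales. The 84 genes higher in control 2 (blue) reach down to the floor at 0.1 on the vertical axis, where control 3 had no count, while nearly all of the 66 genes higher in control 3 (orange) lie above the corresponding floor of control 2.

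The directions differed in how low the low control was. Among the genes higher in control 2, 22 of 84 had at most 3 counts in control 3, and 15 of those had none. Among the genes higher in control 3, 2 of 66 had at most 3 counts in control 2, and SHISAL1 alone had none. The median level in the low control was 3.74% of the high control for the first set and 5.55% for the second. Both had to lie under 10% by the rule. Over all 5676 and 5794 expressed autosomal genes higher in the respective control the medians were 78.5% and 76.5%. So most of the genes higher in control 3 were also detected in control 2, at a lower level. Whether control 2 was lowered or control 3 raised was not tested. With counts taken as independent, a count of 0 allows a level of up to 0.0485 to 0.0578 CPM, depending on the library. Bulk RNA cannot tell fewer cells with a transcript from less transcript per cell, here and for every gene that follows. The median level in the high control was 10.3 CPM in the first set and 16.0 CPM in the second.

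Protein-coding genes made up 141 of the 150. Exons of another gene overlapped those of 47, and as the counting ignored strand, the reads of these 47 genes may partly belong to the overlapping gene. ANXA8 and ANXA8L1, KRT81 and its hair keratin paralogs, CXCL1 and CXCL2, PRSS2 and GOLGA6B have close paralogs, between which reads can be lost or shared. The threshold cut a continuous range. Just inside it, the low control held 9.91% of the high control for LIPG, 9.91% for WNT7B and 9.74% for TSPAN1. Just outside it, PDE7B and CHST4 stood at 10.02% and 10.1% with control 2 as the high library, and DTNA and CHRM3 at 10.02% and 10.28% with control 3 as the high library.

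The chemokine and cytokine genes that met the rule lay on the control 2 side. Of 16 expressed genes in a list of cytokines, chemokines and interleukin receptors, 7 were among the genes higher in control 2 and none among those higher in control 3, so 43.8% of the list met the rule against 1.31% of all expressed genes. The list's median difference, control 3 minus control 2 on the log2 (CPM + 0.1) scale, was -2.02, against 0.01 over all expressed genes. This median includes the 7 switched genes, and the filter at 4 CPM used the same control values, so it is no separate support. In all, 11 of the 16 were more than 2-fold higher in control 2 and 0 were more than 2-fold higher in control 3. Summed over the whole list, the level was 973.6 CPM in control 2 and 929.2 CPM in control 3. CSF1, which missed the rule, was at 378 and 625 CPM in these libraries. Proximal promoters of the 3 neutrophil-attracting chemokine genes CXCL1, CXCL2 and CXCL8 are shown because they are the only matched genes of the 150 whose promoter holds the 9-base κB sequence GGAATTTCC on either strand, here in capitals. The letters run 5′ to 3′ on the gene's strand, from 250 to 31 bases before the start, from RefSeq on GRCh38.p14. CXCL1 lies at chr4:73869143-73869362 (plus strand), CXCL2 at chr4:74099226-74099445 (minus strand) and CXCL8 at chr4:73740319-73740538 (plus strand).
CXCL1: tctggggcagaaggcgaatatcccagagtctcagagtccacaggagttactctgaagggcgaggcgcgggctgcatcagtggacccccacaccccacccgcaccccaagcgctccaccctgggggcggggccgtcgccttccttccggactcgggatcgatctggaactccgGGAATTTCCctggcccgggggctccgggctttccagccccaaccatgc
CXCL2: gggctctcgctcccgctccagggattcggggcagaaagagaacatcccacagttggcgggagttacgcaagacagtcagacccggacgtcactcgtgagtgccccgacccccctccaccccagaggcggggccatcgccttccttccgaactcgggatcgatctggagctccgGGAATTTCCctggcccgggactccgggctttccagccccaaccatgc
CXCL8: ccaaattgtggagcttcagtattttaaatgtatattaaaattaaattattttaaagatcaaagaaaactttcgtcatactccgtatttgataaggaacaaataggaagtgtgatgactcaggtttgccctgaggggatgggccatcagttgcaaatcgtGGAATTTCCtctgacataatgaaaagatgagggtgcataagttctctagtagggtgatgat
The capitals begin 78, 77 and 91 bases before the start of CXCL1, CXCL2 and CXCL8. In CXCL1 and CXCL2 the letters around the match are nearly identical, as the genes are paralogs. The same sequence, which was chosen after these promoters had been read and which overlaps no other sequence searched here, is held by 129 of all 27305 promoters of 300 bases in the table, or 0.472%. The table held promoters for 57 of the 84 genes and 42 of the 66, too few for a comparison of the sets. A match is a description of letters and no evidence of binding.

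CXCL8, which encodes interleukin-8, was at 76.5 CPM in control 2 and 5.24 CPM in control 3, and at 10.4 and 8.45 CPM in cadmium 1 and cadmium 2. CXCL1 was at 38.5 and 3.04 CPM in control 2 and control 3, and at 3.81 and 3.59 CPM in the cadmium libraries. CXCL2 was at 34.4 and 2.45 CPM in the controls, and at 4.57 and 4.31 CPM in the cadmium libraries. For all 3 genes control 2 stood alone, and the cadmium libraries lay toward the low control. The ratio of control 2 to control 3 was 14.6 for CXCL8 (95% counting interval 12.9 to 16.6), 12.7 for CXCL1 (10.8 to 15.0) and 14.1 for CXCL2 (11.8 to 17.0). CXCL3, the remaining close paralog, missed the rule. It was at 6.20, 1.33, 1.72 and 1.63 CPM in control 2, control 3, cadmium 1 and cadmium 2, which is the order of values used from here on.

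CCL2, the monocyte attractant, had 647, 0, 2 and 0 counts, which makes control 2 at least 181-fold higher than control 3 against the floor of 3 counts. IL24, an interleukin-10 family cytokine, was at 19.2, 1.00, 2.83 and 3.60 CPM. IL1B, the proinflammatory interleukin-1 beta, was at 9.05, 0.443, 0.472 and 0.530 CPM. The other 3 libraries held at most 6% of the control 2 level for CCL2 and IL1B, and more than that in both cadmium libraries for IL24. CXCR4, the receptor of the chemokine CXCL12, had 932, 0, 108 and 132 counts, so it was without a count in control 3 and present in both cadmium libraries. Against the same floor, control 2 was at least 261-fold higher than control 3 for CXCR4. IL6, a cytokine of the same list outside the rule, was at 19.99, 5.31, 5.75 and 7.56 CPM.

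**Figure D2:**
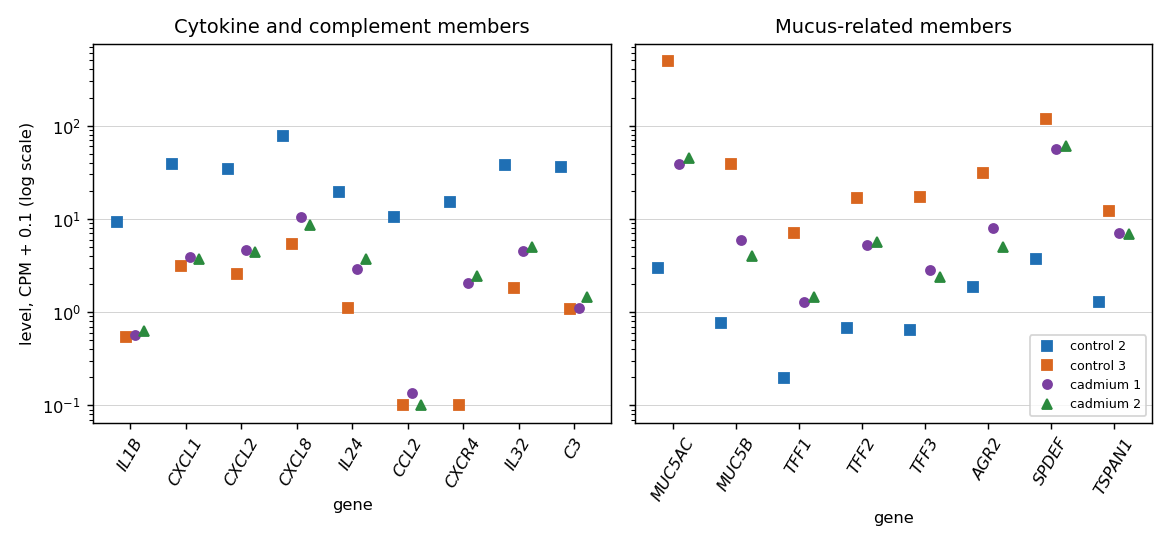
Levels in CPM plus 0.1 (log scale) in the 4 libraries for 9 cytokine, chemokine receptor and complement genes higher in control 2 (left) and 8 mucus-related genes higher in control 3 (right). On the left the control 2 square stands above all other symbols in every gene; on the right the control 3 square does, with both cadmium symbols between the controls.

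Complement genes and other immune genes had no list of their own, and those described next were singled out after their values were seen. Immune genes occurred in both directions. C3, the central complement component, was at 35.8, 0.982, 0.998 and 1.36 CPM. SERPING1, the inhibitor of complement C1, was at 7.93, 0.270, 0.962 and 0.919 CPM. IL32, an inflammatory cytokine with exons that overlap another gene's, was at 37.5, 1.71, 4.43 and 4.95 CPM. In all 3 the cadmium libraries held under 15% of the control 2 level. FPR1, the formyl peptide receptor, was also higher in control 2 but differed from these under cadmium: at 5.65, 0.193, 3.36 and 3.71 CPM, both cadmium libraries stayed above 50% of control 2. In the other direction, CMKLR1, the receptor of chemerin, was at 0.791, 38.5, 14.8 and 24.2 CPM, and CD96, a receptor of T and natural killer cells, was at 0.921, 11.7, 3.39 and 1.82 CPM. A list of NF-kB target genes, written after the values were seen and sharing CXCL1, CXCL2, CXCL8, IL1B and CCL2 of its switched genes with the cytokine list, had 7 of 18 expressed genes in the control 2 set, none in the control 3 set and a median of -2.02 (log2). The expressed genes of that list that missed the rule had, by that rule, to differ less than 10-fold between the controls. ICAM1, an adhesion receptor for leukocytes, was at 226, 31.0, 51.0 and 46.4 CPM, and NFKBIA, the inhibitor of NF-kB, was at 127, 114, 91.1 and 70.0 CPM.

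Mucus genes lay on the control 3 side. A list of mucus and goblet cell genes, written after the values were seen and therefore no independent evidence of its direction, had 8 of 11 expressed genes in the control 3 set and none in the control 2 set. Its median difference was 4.62 (log2, control 3 minus control 2), and 10 of the 11 were more than 2-fold higher in control 3. MUC5AC, a secreted gel-forming mucin, was at 2.86, 490, 38.88 and 44.7 CPM, a ratio of the controls of 171.5. MUC5B, its neighbor and fellow gel-forming mucin, was at 0.662, 38.6, 5.77 and 3.87 CPM. Both mucins were highest in control 3 by a wide margin and held 7.93% to 14.95% of that level in the cadmium libraries.

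SPDEF, the transcription factor that drives goblet cell differentiation, was at 3.60, 118, 55.4 and 60.2 CPM. AGR2, a disulfide isomerase needed to fold mucins, was at 1.76, 31.2, 7.84 and 4.89 CPM. SPDEF stayed at 46.8% and 50.9% of control 3 under cadmium, and AGR2 at 25.1% and 15.7%. TFF1, TFF2 and TFF3 encode trefoil peptides, which are secreted with mucins. TFF1 was at 0.0969, 7.03, 1.20 and 1.34 CPM. TFF2 was at 0.581, 16.7, 5.08 and 5.51 CPM. TFF3 was at 0.549, 16.9, 2.72 and 2.30 CPM. In these genes too, both cadmium libraries lay between the controls. TFF1 and TFF3 also stood in the list of luminal breast markers, where they were the only members among 8 expressed genes. GATA3, the luminal transcription factor in that list, was at 16.9, 10.9, 10.6 and 8.75 CPM.

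Several of the genes with the highest CPM in control 3 belonged to neither of these groups. TNS4, a tensin of focal adhesions, was at 28.9, 820, 186 and 164 CPM, a ratio of 28.4 (27.1 to 29.8). KRT81, a hair keratin, was at 25.4, 781, 232 and 260.3 CPM. SCNN1A, the alpha subunit of the epithelial sodium channel, was at 26.8, 302, 107 and 102 CPM. In all 3 the cadmium libraries held 19.9% to 35.4% of the control 3 level. KRT81 was 1 of 17 expressed keratins and barrier genes (5.88%, against 1.31% of all expressed genes), and the median of that list was 0.54 (log2). GPRC5C, an orphan receptor, was at 10.5, 138, 42.8 and 35.1 CPM, and ATP10A, a phospholipid flippase, was at 2.08, 108, 45.0 and 47.0 CPM.

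Signaling genes appeared on both sides. WNT7B, a Wnt ligand, was at 18.8, 190, 79.6 and 94.2 CPM, and INHBB, the beta B subunit of activin and inhibin, was at 3.21, 166, 72.4 and 62.01 CPM. HHIP, which binds and holds back Hedgehog ligands, went the other way, at 68.4, 6.70, 7.88 and 8.73 CPM. In the list of growth factors and receptors, 1 of 28 expressed genes met the rule, WNT7B (3.57%), against 1.31% of all expressed genes. Ligand and receptor of the endothelin system, singled out after their values were seen, split: EDN2, an endothelin, was at 5.64, 0.308, 1.14 and 0.954 CPM and EDNRA, the type A receptor, was at 0.743, 9.47, 4.08 and 2.35 CPM. The control cultures thus held the ligand and the receptor in opposite order, with both cadmium libraries between them for each gene.

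Targets of bone morphogenetic protein (BMP) signaling also split, in a list written after the values were seen. Of 10 expressed genes, ID2, ID3 and ATOH8 were in the control 3 set and MSX2 was in the control 2 set, and the list's median was 1.56 (log2). ID3, an inhibitor of basic helix-loop-helix factors, was at 7.90, 103, 29.9 and 31.4 CPM. ATOH8, itself a basic helix-loop-helix factor, was at 0.759, 91.2, 7.48 and 9.49 CPM. MSX2, a homeobox factor, was at 5.86, 0.366, 0.672 and 0.459 CPM. Beyond the rule, ID1 was at 61.4, 502, 151 and 162 CPM and the inhibitory SMAD6 at 5.41, 30.9, 8.88 and 9.82 CPM, both highest in control 3.

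**Figure D3:**
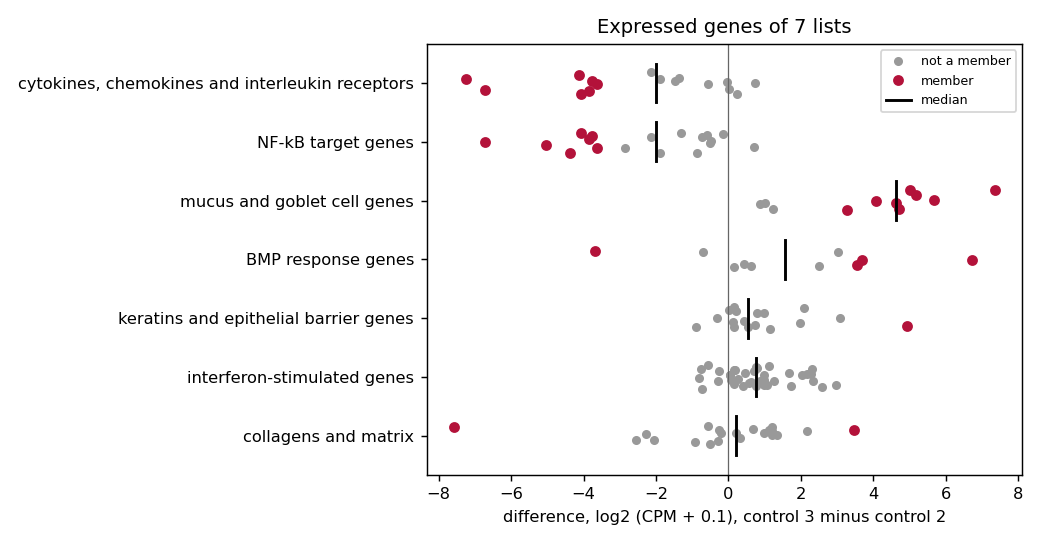
Difference between the controls, log2 (CPM + 0.1) of control 3 minus control 2, for the expressed genes of 7 lists; red points met the rule, gray points did not, and black bars mark list medians. The cytokine and NF-kB medians are both -2.02 and the mucus median is 4.62, while the keratin, interferon and collagen lists are centered at 0.54, 0.76 and 0.22. The mucus, NF-kB and BMP lists were written after the values were seen, so their medians are not a like comparison. The cytokine and NF-kB lists share switched genes.

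Abundant genes of the control 2 set included cell surface and cytoskeletal genes. PTGFRN and IGSF3, neighboring genes for immunoglobulin-domain membrane proteins, were at 106, 0.0385, 2.85 and 1.73 CPM and at 81.4, 1.46, 8.95 and 7.05 CPM. PTGFRN had 6535 counts in control 2 and 2 in control 3, a ratio of 2741 with a counting interval of 758 to 22640. It was the widest ratio with counts in both controls among the named genes. GRAMD1B, which carries cholesterol from the plasma membrane, was at 90.9, 0.0770, 1.40 and 1.61 CPM. COBL, an actin nucleator, was at 50.2, 0.154, 0.272 and 0.194 CPM. SORCS2, a sortilin-family receptor, was at 61.5, 0.270, 5.16 and 4.93 CPM, and TP53I11 at 77.9, 0.308, 2.12 and 3.29 CPM. In the last 4 genes the other 3 libraries held under 10% of the control 2 level. FOSB, a subunit of the AP-1 transcription factor, was at 114, 3.54, 19.5 and 8.89 CPM, and differed more than 2-fold between the cadmium libraries.

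Among the 15 genes without a count in control 3, the count in control 2 ran from 267 to 1514. Both cadmium libraries had more than 3 counts in 12 of the 15. GALNT14, which starts O-linked sugar chains, had 1514, 0, 50 and 10 counts, and SEMA5A, a guidance cue, had 575, 0, 32 and 41. ATF7IP2 had 1309, 0, 8 and 8 counts, NCAM2, a neural adhesion molecule, had 556, 0, 20 and 9, and KCNK5, a potassium channel, had 395, 0, 4 and 0. In most of these genes the low level of the cadmium libraries was therefore above that of control 3. CCL2 and CLEC11A alone were at or under 3 counts in all 3 other libraries. THBS2, the matrix protein thrombospondin-2, had 1646, 2, 42 and 61 counts, with a ratio of the controls of 690.3 (interval 191 to 5705).

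The cadmium values were not used by the rule, and their place was set on the log2 (CPM + 0.1) scale relative to the midpoint of the controls. Both cadmium libraries lay nearer control 3 in 112 of the 150 genes, nearer control 2 in 24, and on both sides of the midpoint in 14. Of the genes higher in control 2, 69 of 84 (82.1%) had both cadmium libraries nearer the low control and 12 (14.3%) nearer the high control. The background over all 5676 expressed genes higher in control 2 was 58.5% and 26.9%. Of the genes higher in control 3, 43 of 66 (65.2%) had both nearer the high control and 12 (18.2%) nearer the low control, against 52.8% and 29.9% of all 5794 expressed genes higher in control 3. Among genes with a 2- to 10-fold difference between the controls, the low-side share was 66.0% with control 2 as the high library, and the high-side share was 69.5% with control 3 as the high library. Among genes with a 5- to 10-fold difference, these shares were 57.5% and 80.7%. With control 2 as the high library, the lean toward control 3 was thus present at 2- to 10-fold. In the 5- to 10-fold class it was not above the background of 58.5%, and it was largest in the 84 genes. On the control 3 side the lean was shared by genes that did not meet the rule, and the share of the 66 genes was not above theirs. No test attaches to these shares, since the genes were measured in the same 4 libraries.

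The lean on the control 3 side depended on the scale. With the midpoint taken on the linear CPM scale, both cadmium libraries were nearer the low control in 66.7% of the 66 genes and nearer the high control in 25.8%. For the 84 genes higher in control 2 the linear scale gave 94.0% and 2.38%, in the same direction as the log2 scale. Measured as a percentage of the high control, the mean cadmium level had a median of 11.5% in the control 2 set (quartiles 4.08% and 17.5%) and 32.8% in the control 3 set (21.0% and 56.0%). The same medians over all expressed genes were 81.1% and 91.8%, and over genes with a 5- to 10-fold difference between the controls 30.2% and 61.7%.

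**Figure D4:**
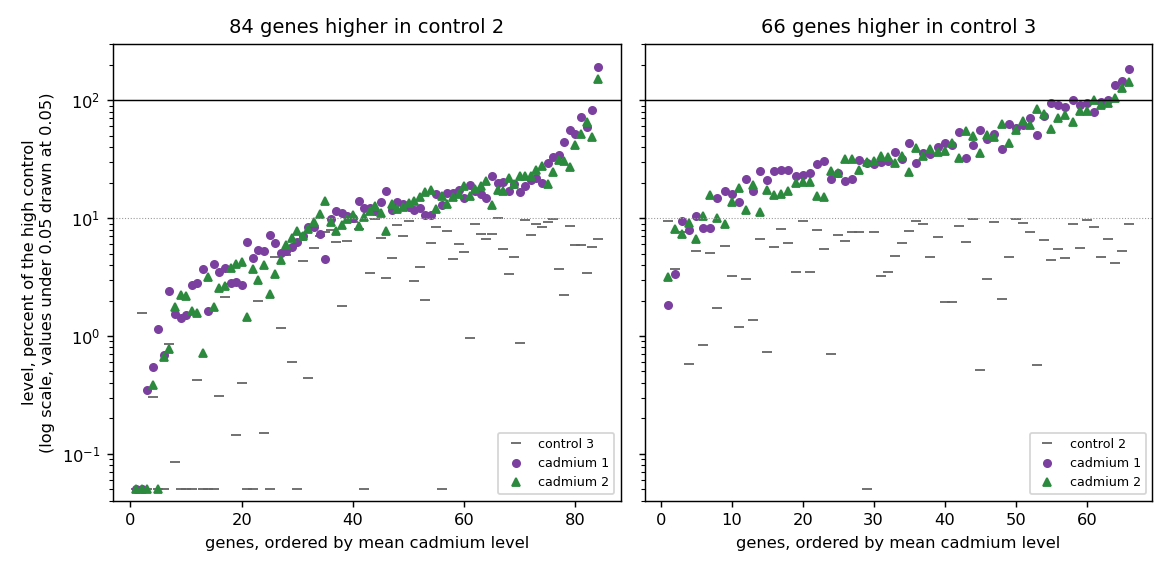
Cadmium 1 (circles) and cadmium 2 (triangles) as a percentage of the high control (log scale, values under 0.05 drawn at 0.05), with genes ordered by their mean cadmium level; short bars mark the low control, the solid line the high control at 100% and the dotted line 10%. In the left panel (84 genes higher in control 2) most cadmium symbols lie under 20% of the high control, and in the right panel (66 genes higher in control 3) their median is 32.8%.

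Both cadmium libraries lay between the controls in 134 of the 150 genes, 76 of 84 and 58 of 66. Over all expressed genes this share was 35.1%, and among genes with a 5- to 10-fold difference between the controls it was 83.6% and 77.1%, so it rose with the span that the rule selected on. Both cadmium libraries held at most 10% of the high control in 34 of the 84 genes and in 4 of the 66 genes, namely MUC5AC, FMOD, ABCG1 and IGSF9B, against 0.375% of all expressed genes. They held at least 50% of it in 3 of the 84 and 17 of the 66, against 91.7% of all expressed genes. The 3 of the 84 were ADAMTS14, FPR1 and SHOC1. Among genes 5- to 10-fold higher in control 2, the shares were 1.37% (at most 10%) and 23.3% (at least 50%). Among those 5- to 10-fold higher in control 3, they were 0% and 62.4%. These shares too moved with the span, so the values over all expressed genes are not a like comparison.

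The 17 genes of the control 3 set that kept at least 50% of the high control in both cadmium libraries were of mixed function. COL6A3, a chain of collagen VI, was at 8.64, 97.1, 96.9 and 63.0 CPM. NTN4, the guidance and basement membrane protein netrin-4, was at 4.04, 72.4, 66.3 and 58.5 CPM. PCDH7, a protocadherin, was at 1.55, 18.5, 14.7 and 18.6 CPM. In these 3 genes control 2 stood apart as the lowest library. ALDH3A1, an aldehyde dehydrogenase, was at 0.226, 39.6, 20.1 and 33.5 CPM. ROBO1, a Slit receptor, was above both controls in both cadmium libraries, at 2.04, 39.0, 56.6 and 49.8 CPM. So were PPP2R2C, a regulatory subunit of protein phosphatase 2A, at 0.985, 11.1, 20.5 and 15.8 CPM, and SULT1C2, a sulfotransferase, at 0.307, 7.34, 9.87 and 7.65 CPM. On the control 2 side a few genes had control 3 as the lowest library and both cadmium libraries nearer control 2. Of those given here, ADAMTS14 alone held at least 50% of the high control in both cadmium libraries. ADAMTS6, a secreted metalloprotease, was at 21.6, 1.23, 17.7 and 10.6 CPM. ADAMTS14, a procollagen protease, was at 10.3, 0.616, 7.50 and 5.33 CPM. CYFIP2, a subunit of the WAVE actin regulator, was at 14.4, 0.847, 7.42 and 6.06 CPM.

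FMOD, the matrix proteoglycan fibromodulin, showed the opposite behavior in the control 3 set, at 2.55, 33.5, 3.18 and 2.44 CPM, so that both cadmium libraries lay near control 2. ABCG1, a cholesterol exporter, was at 0.856, 8.97, 0.163 and 0.283 CPM and lay below both controls. The cadmium libraries lay outside the range of the controls on the same side in 6 of the 150 genes, against 41.2% of all expressed genes: ROR2 and ABCG1 below, and SHOC1, ROBO1, PPP2R2C and SULT1C2 above. The rule selected genes with a wide range between the controls, which favored a low share outside it. ROR2, a Wnt receptor named after its values were seen, had 306, 4, 0 and 0 counts, and SHOC1, a meiosis gene likewise named, was at 4.05, 0.270, 7.70 and 6.11 CPM.

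The ratio between the cadmium libraries, which the rule did not use, was more variable in these genes than over all expressed genes. The spread of the log2 ratio between cadmium 1 and cadmium 2 (SD estimated from the median absolute deviation) was 0.47 in the 84 genes and 0.48 in the 66, against 0.15 over all expressed genes. Genes 5- to 10-fold higher in control 2 or in control 3 had a spread of 0.34 or 0.32. The spread thus rose with the span between the controls and was not particular to the 150 genes. Taken on CPM + 0.1, the ratio exceeded 2-fold in 6 of the 84 (FOSB, GALNT14, PRSS2, SERPINA5, ENSG00000253500 and CNGA1) and in 1 of the 66 (ID2). Over all expressed genes the share was 0.192%. On plain CPM, further genes of low level exceeded 2-fold, such as NCAM2 (0.363 and 0.159 CPM) and IGSF9B (0.218 and 0.530 CPM). The expressed genes as a whole have a higher median level in the high control, 41.8 CPM against 12.3 CPM in the 150 genes. In the cadmium libraries the gap in level was wider, as their median was 86.9% of the high control against 17.6% in the 150 genes. The part of depth in this spread was not tested.

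The comparison of cadmium with control by DESeq2 (two-sided Wald test, Benjamini-Hochberg adjusted p below 0.1) called 225 of 19816 genes, or 1.14%, of which 119 were higher (0.601%) and 106 lower (0.535%) in cadmium. Of the 150 genes, ABCG1 and CLEC11A were called. As the rule used the same control libraries, nothing is read from this count. ABCG1 had a log2 fold change of -4.46 (SE 0.91, adjusted p = 0.000424), with 53 and 466 counts in the controls and 9 and 16 in the cadmium libraries. CLEC11A, a growth factor of the bone marrow, had 329, 0, 0 and 0 counts (adjusted p = 0.000518), and its call rested on control 2 alone. Control 3 and both cadmium libraries were equal at 0 for it. Requiring at least 10 counts in 2 libraries removed CLEC11A before the test, so that setting says nothing about its call. The edgeR quasi-likelihood test made 0 calls; before adjustment, p was below 0.05 for 1422 genes with edgeR and for 1438 with DESeq2. Leaving out a control library changed the counts most: 83 of the 150 genes were called without control 2, where 14.8% of all tested genes were called, and 136 without control 3, where 31.2% were, with the remaining control assumed to vary as the cadmium libraries do. Without cadmium 1 or cadmium 2 a single gene was called in each case, CCL2 or ABCG1, and the count over all genes fell to 12 higher and 5 lower (0.114%) or to 9 higher and 5 lower (0.107%).

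The switched genes tended to have a switched neighbor. For 28 of the 150 (18.7%), the next expressed autosomal gene on either side was also one of the 150, against 265 of 11320 other expressed genes (2.34%). The 28 genes formed 15 neighboring pairs, of which 13 had the same direction. In the trefoil cluster on chromosome 21, ABCG1 (chr21:42199689-42297244), TFF3 (chr21:42311667-42315409), TFF2 (chr21:42346357-42350997) and TFF1 (chr21:42362282-42366535) followed each other, all higher in control 3. The cadmium libraries did not treat that row of genes alike, with ABCG1 below both controls and the trefoil genes between them. MUC5AC (chr11:1157953-1201138) and MUC5B (chr11:1223066-1262172) were 21.9 kb apart. CXCL8 and CXCL1 on chromosome 4 and IGSF3 and PTGFRN on chromosome 1 were neighboring pairs higher in control 2. ADORA1 with FMOD and RNF144A with ID2 were pairs of opposite direction. All coordinates are those of the count table on hg38, except for the promoters. Reads of neighbors can also overlap, as may be the case for SEMA5A and SNHG18, which lie 94 bases apart, and for TNS4 and ENSG00000279806.

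The genes around the switched genes did not follow them in size. The 5 expressed genes on each side of a gene higher in control 2 had a median difference of -0.12 (log2), against -4.35 for the 84 genes themselves. Around genes higher in control 3 the median was 0.18, against 3.93 for the 66 genes. As the rule selected the switched genes on this difference, smaller values around them were likely in advance. The flank median lay on the gene's own side of 0 for 54 of the 84 (64.3%) and 45 of the 66 (68.2%). A median flank beyond 1 on the log2 scale in the gene's own direction was found for 1 of the 84 genes and 3 of the 66. By chromosome, chromosome 21 held 7 of the genes among 111 expressed (6.31%), 6 of them higher in control 3, and chromosome 4 held 16 among 463 (3.46%). All 4 on chromosome 18 were higher in control 2, where the median over all 165 expressed genes was -0.62. All 5 on chromosome 5 were higher in control 2 as well, with a chromosome median of 0.01. The medians of chromosomes 21 and 4 were -0.14 and 0.19.

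Genes associated with leukocytes were found in both directions, and those named here were picked and not drawn from a list. Higher in control 3, ITGB2, the integrin beta 2 chain with overlapping exons, was at 11.0, 118, 61.8 and 57.2 CPM, and MYO1F, a myosin of immune cells singled out after its values were seen, was at 0.581, 79.7, 16.7 and 13.9 CPM. Higher in control 2, besides CXCR4 and FPR1, CST7, the inhibitor cystatin F, was at 41.1, 3.83, 4.10 and 4.35 CPM, and IKZF3, a lymphoid transcription factor, was at 5.83, 0.424, 1.32 and 0.760 CPM. PTPRC, the common leukocyte antigen, was at 0.0323, 2.60, 0.672 and 0.760 CPM and missed the rule by its level. The 10 leukocyte markers summed to 4.07, 5.30, 2.29 and 3.22 CPM, and CD3E and MS4A1, which mark T and B lymphocytes, were at 0 in all libraries.

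The remaining lists are given beside the background of 1.31%. Collagens and matrix genes held COL6A3 and THBS2 among 21 expressed genes (9.52%), in opposite directions. Cadherins and adhesion genes held PCDH7 and NCAM2 among 16 (12.5%), also in opposite directions. Detoxification and steroid enzymes held ALDH3A1 and SULT1C2 among 21 (9.52%), both higher in control 3. Channels and transporters held KCNK5 and ABCG1 among 26 (7.69%), and proteases and inhibitors held ADAMTS6 among 23 (4.35%). All these shares were above the background but rest on 1 or 2 genes each. No gene met the rule among 37 expressed interferon-stimulated genes, 27 developmental transcription factors, 18 antigen presentation genes, 17 imprinted genes, 5 metallothioneins, 4 HOX genes and 2 germline genes, lists so short that the background share amounts to less than 1 gene in each. Interferon-stimulated genes had a median of 0.76 (log2), with 12 more than 2-fold higher in control 3 and none more than 2-fold higher in control 2. Metallothioneins, the metal-binding proteins induced by cadmium, had a median of -0.67.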

How the data were processed

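RNA-seq libraries of 2 control and 2 cadmium-resistant MDA-MB-231 samples were analyzed. Per the labels and the study's methods, the authors aligned read pairs to hg38 with HISAT2 and counted them over Ensembl genes with featureCounts 2.0.1. The deposited values are raw counts per gene with no normalization, summed over exons without strand. Control columns could not be tied to a labelled replicate and are named by their column numbers. The single control libraries are compared as a description, and a test was run only between the groups. P-values measure the spread between these samples, which may be technical.

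CPM was computed from the column sum, and log2 values used a pseudocount of 0.1 CPM. Gene types came from a GENCODE annotation, and overlaps from the exon positions in the count table. Symbols matched 61369 of 61541 genes. DESeq2 1.42.0 and edgeR 4.0.16 were run in R 4.3.3 on all genes, after a check on simulated data. Ratio intervals are exact (95%) for independent counts, which the mates of a pair are not. A ratio against 0 counts used a floor of 3 counts.

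The genes and the lists were chosen with earlier results of these data known, and the mucus, NF-kB and BMP lists were added after values of the genes had been seen. Named genes were, in each direction, the 10 most abundant protein-coding genes, the 3 with the highest and the 3 with the lowest cadmium levels relative to the high control (at 10 CPM or more), up to 4 genes of each list, the 2 genes on each side of the threshold and those called by DESeq2. Others were named after seeing their values. Some genes that this rule names are not reported here. Alternatives covered thresholds, scaling, pseudocount, midpoint scale, gene classes, test and left-out libraries.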

Additional observations from a re-analysis of the deposited data

How the results depend on the processing

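Under the other thresholds of level (2 and 8 CPM), scaling by size factors or TMM, protein-coding genes only, removal of overlapping genes and halved counts, both counts of switched genes stayed within 1.5 times those given. A ratio of 0.2 gave 157 genes higher in control 2 and 175 higher in control 3, and a ratio of 0.05 gave 49 and 28, which follows from the wider or narrower rule. The place of the cadmium libraries moved with the rule and the scale, and the cause was not tested. At a ratio of 0.2, 70.7% of the genes higher in control 2 had both cadmium libraries nearer the low control. At a ratio of 0.05, 7.14% of the genes higher in control 3 had both nearer the low and 82.1% nearer the high control. A pseudocount of 1 CPM gave 33.3% nearer the low control for that set. On the linear scale the shares nearer the low and the high control were 94.0% and 2.38% for genes higher in control 2, and 66.7% and 25.8% for genes higher in control 3. Leaving out a cadmium library gave 83.3% to 84.5% (low) and 15.5% to 16.7% (high) for the first set, and 24.2% to 28.8% and 71.2% to 75.8% for the second.

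In the comparison of cadmium with control, edgeR called 0 genes, 0 of them switched, with 1422 at an unadjusted p below 0.05. Requiring 10 counts in 2 libraries, which removed CLEC11A before the test, left 1 switched gene called. TMM factors gave 3 and no independent filtering gave 2. Leaving out each library gave 9 to 2678 genes higher, 5 to 3511 lower and 1 to 136 switched genes called. No paired analysis was possible because replicate numbers of the control columns and of the labels differ. At these depths a gene without a count can still hold 0.0485 to 0.0578 CPM, with counts taken as independent. With 1 library per control culture no difference between the cultures can be set against replicate error.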
